A study of Mus musculus with 2 samples.

Results

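WNT signaling genes were examined in organoids with and without the transcription factor SOX2. The organoids were squamous and came from the mouse forestomach, where a stratified epithelium lines the stomach of rodents. The genes were the WNT ligands, the R-spondins, their Frizzled, LRP and LGR receptors, the secreted antagonists, the beta-catenin destruction complex, the TCF/LEF factors and the best-known feedback genes, chosen by name. The rule found 59 of the 29456 genes that had a probe set with 1 gene symbol, and each of the 59 had 1 such probe set. Among them was Rspo4os, a transcript antisense to Rspo4 that matched by its symbol. Ctnnb1, which encodes beta-catenin itself, was covered by a probe set that also carries the symbol Gm38502, so it was outside the 59. Its signal is given separately.

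The SOX2 KO culture came from Krt5CreER/+; Sox2∆/∆; ROSA26tdTomato/+ mice, in which the Krt5 promoter drives an inducible Cre recombinase and tdTomato marks recombined cells. The other culture came from mice labelled wildtype. By the study's methods, controls were littermates that lacked Krt5CreER, and deletion was induced with tamoxifen. No age was given for the animals. Both cultures were grown in Matrigel in a keratinocyte medium with pituitary extract, EGF, calcium and the kinase inhibitor Y-27632, and the methods name no WNT or R-spondin among the additives. Each group had 1 library on 1 Affymetrix Mouse Gene 2.0 ST array. There is therefore no error between replicates and no p-value, and genotype cannot be told apart from mouse, culture or array. Values are log2 probe set signals, and each difference is SOX2 KO minus WT control. In such bulk RNA, fewer cells of a type and less RNA per cell cannot be told apart.

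WNT ligands are secreted, lipid-bearing proteins that bind Frizzled receptors together with LRP5 or LRP6. In the canonical branch this stops the complex of APC, axin and GSK3 from marking beta-catenin for destruction, and beta-catenin then activates genes with TCF/LEF factors. R-spondins act through LGR4, LGR5 and LGR6 to protect Frizzled from the ubiquitin ligases ZNRF3 and RNF43, which raises the response. The pathway maintains the stem cells of the intestine, and in skin it sets hair follicle fate and supports basal cells.

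The deleted gene checked the labels. Sox2 had a signal of 2.53 in SOX2 KO and 5.74 in WT control. The basal squamous keratin Krt5 (8.71 in SOX2 KO and 8.86 in WT control) and the basal transcription factor Trp63 (6.31 in SOX2 KO and 6.44 in WT control) were bright in both libraries. Krt13, a keratin of the upper layers, had 8.97 in SOX2 KO and 10.33 in WT control. Among 10 squamous markers, 1 was at least 1.5-fold higher in SOX2 KO and 3 were lower, against 3.91% and 2.72% of all genes. The higher marker was Krt15, at 8.73 in SOX2 KO and 7.50 in WT control. The lower markers were Krt13, Krt6a (7.47 in SOX2 KO and 8.69 in WT control) and Krt4 (7.49 in SOX2 KO and 8.46 in WT control). The 1127 olfactory receptor genes, which squamous epithelium is not known to use, served as a stand-in for background. Of their values 95% lay below 3.84, called the receptor level here, and their differences had an SD of 0.26. Sox2 was below this level in SOX2 KO, and taken against it was 3.72-fold lower there.

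Against this level most of the WNT genes were dim, as were most genes on the array. Of the 59 genes, 17 were above the receptor level in both libraries, 3 in SOX2 KO alone (Notum, Dkk1 and Dkk3), 1 in WT control alone (Fzd4) and 38 in neither. Over all 29456 genes, 8521 were above it in both libraries, 993 in SOX2 KO alone, 1003 in WT control alone and 18939 in neither. The split of the 59 was thus close to that of all genes. A dim probe set may be an absent or a rare transcript, and a fall in it cannot be told apart from a shift of background. With the 90th percentile of receptor values as the level, 29 of the 59 genes were above it in both libraries, and with the 99th percentile 2 were.

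**Figure D1:**
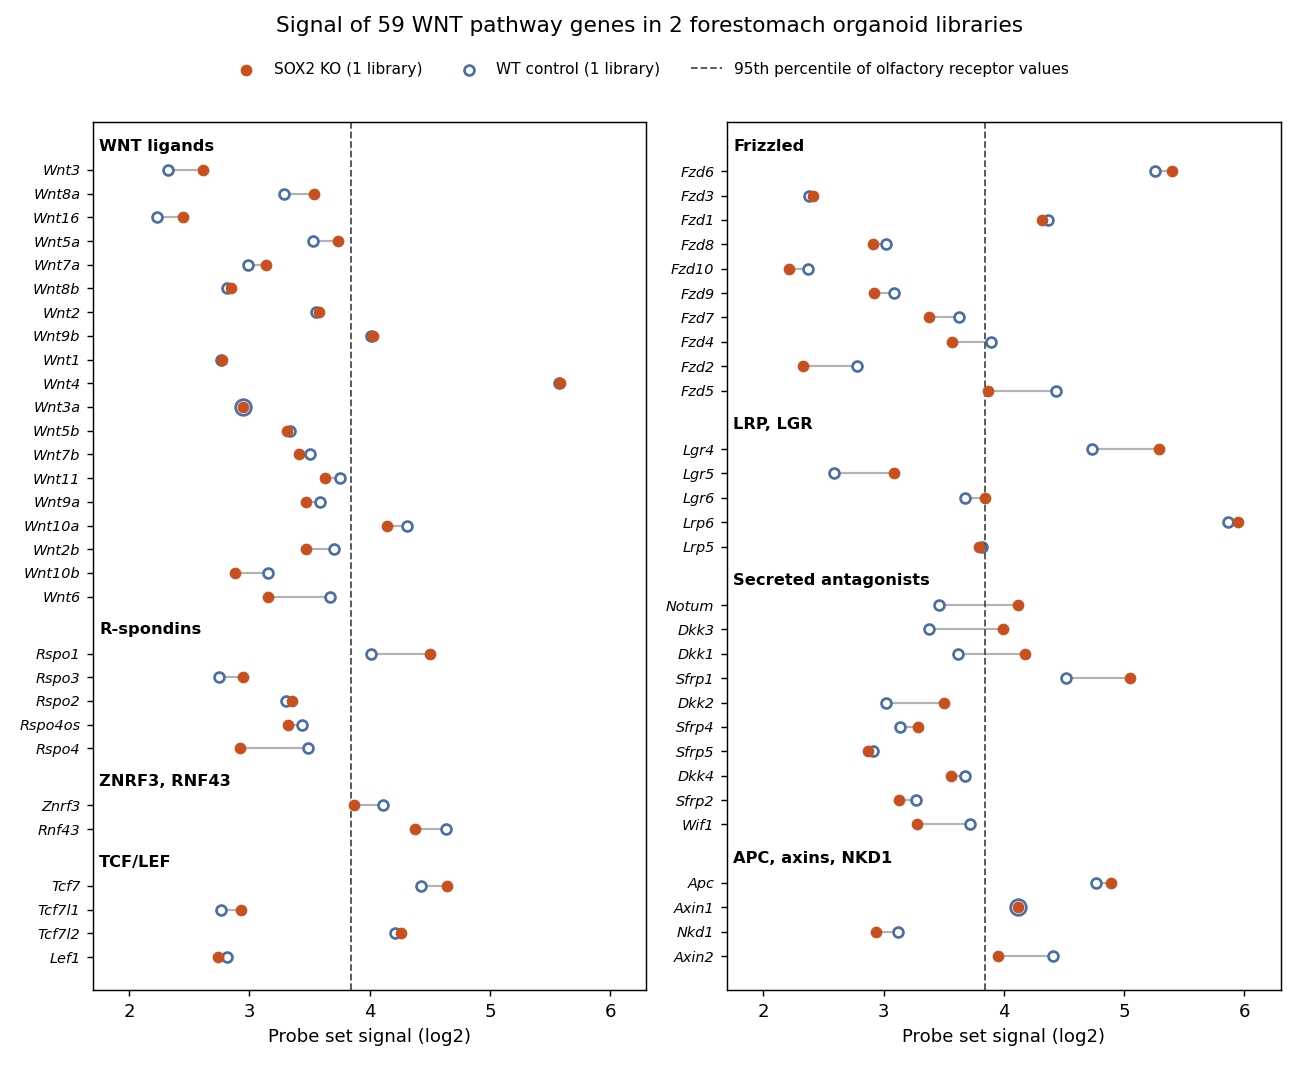
Log2 probe set signal (x axis) of each of the 59 genes (y axis, grouped by role and ordered by difference) in the SOX2 KO library (filled) and the WT control library (open), with a dashed line at the receptor level of 3.84. An open ring around a filled point marks equal values, as for Wnt3a and Axin1. Most pairs sit left of the line, 17 lie right of it in both libraries, and no pair is 1 log2 unit apart. Signals of different genes come from different probes, so only the 2 points of a row can be compared.

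No gene of the 59 reached a 2-fold difference in either direction. Over all 29456 genes, 1.12% had a signal at least 2-fold higher in SOX2 KO, and 0.435% passed that fold in the lower direction. At 1.5-fold, 2 of the 59 genes (3.39%) were higher in SOX2 KO, against 3.91% of all genes, and 0 were lower, against 2.72% of all genes. These shares lie near the background. The 2 genes were Notum and Dkk3, each above the receptor level in SOX2 KO only. Among the 9492 genes whose mean signal was at or above the receptor level, the shares were 2.53% and 1.14% for 2-fold higher and lower, and 7.44% and 4.94% for 1.5-fold. Of the WNT genes 18 were in that class, and none of them reached 1.5-fold.

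The 59 differences ran from -0.57 (Rspo4) to 0.66 (Notum), with 29 genes higher, 28 lower and 2 equal. Their median was 0.00, as it was over all genes, and the median size of the difference without its sign was 0.17 in both cases. The SD was 0.295 over the 59 genes and 0.334 over all genes. Of the 59, 42 differed by no more than the receptor SD of 0.26 (71.2%, against 68.9% of all genes).

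Among the 19 WNT ligands, 3 were above the receptor level in both libraries. Wnt4, a ligand of epithelial development, had a signal of 5.58 in SOX2 KO and 5.57 in WT control. Wnt10a, a ligand needed for the skin's appendages and stratified epithelia, had 4.14 in SOX2 KO and 4.31 in WT control. Wnt9b had 4.03 in SOX2 KO and 4.01 in WT control. These 3 ligands were therefore nearly level, and the sign for Wnt4 turned after quantile scaling (-0.09). The other 16 ligands stayed below the receptor level in both libraries, between 2.45 and 3.74 in SOX2 KO and between 2.23 and 3.75 in WT control. They included Wnt5a, the main ligand of the branch that does not use beta-catenin, at 3.74 in SOX2 KO and 3.53 in WT control, and Wnt7b, at 3.41 in SOX2 KO and 3.50 in WT control. The lowest difference among ligands was that of Wnt6 (-0.52), with 3.15 in SOX2 KO and 3.67 in WT control, both below the receptor level.

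Several ligands lie side by side in the mouse genome, and the coordinates of the array annotation (mm10) allowed neighbours to be set against each other. Wnt6 (chromosome 1, positions 74771892 to 74785319, plus strand) and Wnt10a (74791516 to 74804179, plus strand) are 6.2 kb apart, and their differences were -0.52 and -0.17. Wnt10b and Wnt1 on chromosome 15, 11.7 kb apart, differed by -0.27 and 0.01. Wnt3a and Wnt9a on chromosome 11, 16.2 kb apart, differed by 0.00 and -0.12, and Wnt9b and Wnt3, 24.3 kb apart on the same chromosome, by 0.02 and 0.29. Each pair held at least 1 gene below the receptor level in both libraries, so these differences are largely between background signals and show little about the neighbours.

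Of the 4 R-spondins, Rspo1 was above the receptor level in both libraries, with 4.50 in SOX2 KO and 4.01 in WT control, which is 1.40-fold higher in SOX2 KO. Rspo2 (3.35 in SOX2 KO, 3.30 in WT control) and Rspo3 (2.95 in SOX2 KO, 2.75 in WT control) were dim in both. Rspo4, at 2.92 in SOX2 KO and 3.49 in WT control, had the most negative difference of the 59 genes (-0.57), with both values below the receptor level. The probe set of Rspo4os lies within the span of Rspo4 on the opposite strand, and its values were 3.32 in SOX2 KO and 3.44 in WT control.

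Of the 10 Frizzled receptors, 8 were lower and 2 higher in SOX2 KO, by small amounts, and 5 of those 8 were below the receptor level in both libraries. Over all 29456 genes, 14282 were lower and 13954 higher. The median difference of the 10 receptors was -0.165, against 0.00 over all genes. Fzd5 had 3.87 in SOX2 KO and 4.43 in WT control, a 1.47-fold lower signal in SOX2 KO, whose value sat just above the receptor level. Fzd6, which acts in planar polarity of skin, had 5.40 in SOX2 KO and 5.26 in WT control. Fzd1 was almost level, at 4.32 in SOX2 KO and 4.37 in WT control. Fzd4 was above the receptor level in WT control only (3.57 in SOX2 KO and 3.89 in WT control). The remaining 6 lay between 2.21 and 3.38 in SOX2 KO and between 2.37 and 3.63 in WT control.

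The co-receptor Lrp6 had 5.95 in SOX2 KO and 5.86 in WT control, a difference of 0.09 that became -0.04 after quantile scaling. Its partner Lrp5 had 3.79 in SOX2 KO and 3.82 in WT control, at the edge of background. All 3 R-spondin receptors of the LGR family had a positive difference, as had 13954 of all 29456 genes. Of the 3, only Lgr4 was above the receptor level in both libraries. Lgr4, the family member expressed most widely in epithelia, had 5.29 in SOX2 KO and 4.73 in WT control, or 1.47-fold higher in SOX2 KO. Lgr5, the stem cell marker of intestine and hair follicle, was at 3.09 in SOX2 KO and 2.59 in WT control, below the receptor level in both. Lgr6 had 3.84 in SOX2 KO and 3.68 in WT control. The ubiquitin ligase genes that oppose these receptors, Rnf43 (4.38 in SOX2 KO, 4.63 in WT control) and Znrf3 (3.87 in SOX2 KO, 4.11 in WT control), were lower in SOX2 KO by 0.25 and 0.24, within the receptor SD. A further probe set shared by Rnf43 and 1110028F11Rik was dim, at 2.96 in SOX2 KO and 2.46 in WT control.

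**Figure D2:**
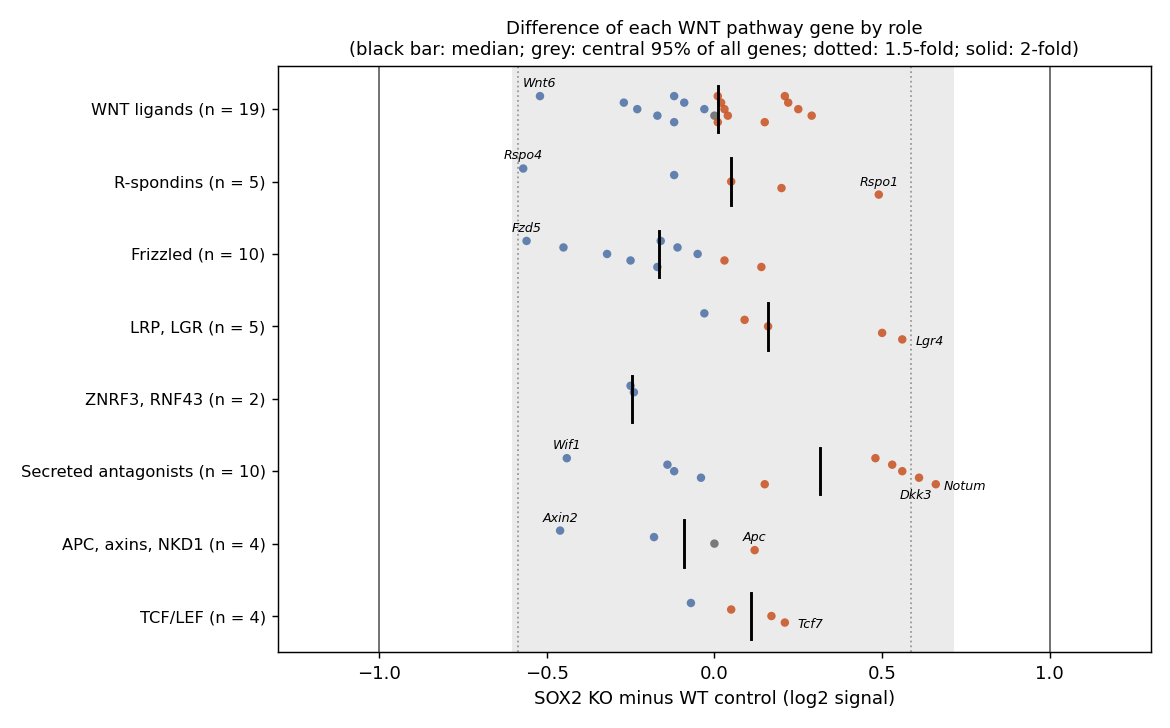
Difference between SOX2 KO and WT control (x axis, log2 signal) for each of the 59 genes by role (y axis), with points coloured by sign (grey at 0), the median of each role as a black bar and the central 95% of all genes (-0.60 to 0.71) in grey. Rspo4os is drawn with the R-spondins. Every point lies inside the 2-fold lines, and only Dkk3 and Notum pass the 1.5-fold line.

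Of the 10 secreted antagonists, 6 were higher and 4 lower in SOX2 KO, but 6 of the 10 were below the receptor level in both libraries. Their median of 0.315, against 0.00 over all genes, lies between Sfrp4 and Dkk2, both among those 6. Over all 29456 genes, 13954 were higher and 14282 lower, and 18939 were below the receptor level in both libraries. Of the antagonists only Sfrp1 was above the receptor level in both libraries. Sfrp1, which encodes a Frizzled-like decoy that binds WNT proteins, had 5.05 in SOX2 KO and 4.52 in WT control, or 1.44-fold higher. Notum, which encodes the enzyme that removes the lipid from WNT ligands, had 4.12 in SOX2 KO and 3.46 in WT control. Because the WT control value lay below the receptor level, the fold was taken against that level, which made Notum 1.21-fold higher in SOX2 KO. Dkk1, whose product blocks LRP5 and LRP6, had 4.18 in SOX2 KO and 3.62 in WT control, 1.26-fold higher against that level. Dkk3, a member of the DKK family with a less settled role in WNT signaling, had 3.99 in SOX2 KO and 3.38 in WT control, 1.11-fold higher against that level. All 3 were thus near the limit of what the array could show, and these folds have no error. Of the olfactory receptor genes, 3.11% were themselves at least 1.5-fold higher in SOX2 KO. Dkk2 was dim in both libraries (3.50 in SOX2 KO and 3.02 in WT control), as was Dkk4 (3.56 in SOX2 KO and 3.68 in WT control). Wif1, which encodes another WNT-binding inhibitor, was at 3.28 in SOX2 KO and 3.72 in WT control. Sfrp2, Sfrp4 and Sfrp5 lay between 2.87 and 3.29 in SOX2 KO and between 2.91 and 3.27 in WT control.

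Several of these secreted factors are also made by stromal cells, and some stromal markers, mainly those of smooth muscle, differed between the same libraries. Of 9 smooth muscle markers, 7 were at least 1.5-fold higher in SOX2 KO, against 3.91% of all genes. Lmod1 went the other way, with 3.58 in SOX2 KO and 4.07 in WT control. The summed linear signal of the 9 was 374.6 in SOX2 KO and 124.5 in WT control. Acta2, the smooth muscle actin gene, had 7.05 in SOX2 KO and 4.16 in WT control. Of 12 fibroblast markers, 5 were higher and 7 lower in SOX2 KO, with a median of -0.04. At 1.5-fold 2 were higher and 1 lower, against 3.91% and 2.72% of all genes. The summed signals of the 12 were 184.8 in SOX2 KO and 124.3 in WT control. The proteoglycan gene Dcn (5.90 in SOX2 KO and 2.83 in WT control) made up most of that gap. Of the 12, 4 were above the receptor level in SOX2 KO and 2 in WT control, and 7 were below it in both, among them Pdgfra (2.96 in SOX2 KO and 3.01 in WT control). The collagen gene Col1a1 was above it in both, with 4.34 in SOX2 KO and 4.04 in WT control. Col1a2 (4.12 in SOX2 KO and 3.48 in WT control) and Vim (3.90 in SOX2 KO and 3.41 in WT control) were above it in SOX2 KO only, and Thy1 (3.45 in SOX2 KO and 4.04 in WT control) in WT control only. Taken against the receptor level, Dcn was 4.16-fold and Col1a2 1.21-fold higher in SOX2 KO, and Thy1 1.15-fold lower. Of 7 endothelial markers, 1 was higher and 6 lower in SOX2 KO, with a median of -0.16. Of these 7, 0 reached 1.5-fold in either direction, and 6 were below the receptor level in both libraries. The part of stromal RNA in the values of Sfrp1, Rspo1, Notum, Dkk1 and Dkk3 was not tested.

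Inside the cell, the signal of the destruction complex was nearly level apart from Axin2. Apc, the scaffold of the complex, had 4.89 in SOX2 KO and 4.77 in WT control, and Axin1 had 4.12 in both. The Ctnnb1 probe set with its 2 symbols (chromosome 9, positions 120929216 to 120960507, plus strand) had 6.59 in SOX2 KO and 6.61 in WT control, a difference of -0.02. The TCF/LEF factors were nearly level as well. Tcf7 had 4.64 in SOX2 KO and 4.43 in WT control, and Tcf7l2 had 4.26 in SOX2 KO and 4.21 in WT control. Tcf7l1, a repressor in the absence of WNT, was dim in both libraries (2.93 in SOX2 KO and 2.76 in WT control). Lef1, which marks cells with strong WNT activity in hair follicles, was dim too (2.74 in SOX2 KO and 2.81 in WT control).

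The feedback genes, which beta-catenin itself can activate, did not differ in 1 direction. Axin2, the most widely used readout of canonical signaling, had 3.95 in SOX2 KO and 4.41 in WT control. That is a difference of -0.46, or 1.38-fold lower in SOX2 KO, in a gene whose SOX2 KO value was only just above the receptor level. Nkd1, a feedback inhibitor that binds Dishevelled, was dim at 2.94 in SOX2 KO and 3.12 in WT control. Of the 8 feedback genes (Axin2, Lgr5, Nkd1, Notum, Znrf3, Rnf43, Tcf7 and Lef1), 5 were lower and 3 higher, with a median of -0.125, against 0.00 over all genes, and a range from -0.46 to 0.66. Over all 29456 genes, 14282 were lower and 13954 higher. Of the 8 feedback genes, 4 were above the receptor level in both libraries.

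Dkk1 and Axin2 are both textbook targets of beta-catenin. Dkk1 was above the receptor level in SOX2 KO only, 1.26-fold higher there when taken against that level, and Axin2 was 1.38-fold lower. Neither difference has an error. Their promoter windows are shown because the TCF/LEF and SOX families read related letters, CTTTGAT or CTTTGAA for TCF/LEF and CTTTGTT or CATTGTT for SOX, both of which were searched on both strands. The words of the 2 families cannot match the same bases in full, but 3 of the 4 share the core CTTTG. Windows of 250 bases before and 50 after each start were taken from RefSeq (GRCm38.p6), which held 46 windows for 37 of the 59 genes. Matches stand in capitals. The Axin2 window is chr11:108920099-108920398 on the plus strand and held no match. The Dkk1 window is chr19:30549447-30549746 on the minus strand and held 1 match of each kind, which start 117 (TCF/LEF) and 98 (SOX) bases before the RefSeq start. The array annotation begins Dkk1 further upstream, at position 30549665, and by it both matches lie inside the gene.
Axin2: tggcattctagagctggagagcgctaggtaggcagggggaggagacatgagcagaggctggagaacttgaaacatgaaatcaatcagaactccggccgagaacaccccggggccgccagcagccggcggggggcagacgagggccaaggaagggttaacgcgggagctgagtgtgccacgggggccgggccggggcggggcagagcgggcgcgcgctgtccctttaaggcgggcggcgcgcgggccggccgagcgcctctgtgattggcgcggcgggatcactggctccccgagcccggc
Dkk1: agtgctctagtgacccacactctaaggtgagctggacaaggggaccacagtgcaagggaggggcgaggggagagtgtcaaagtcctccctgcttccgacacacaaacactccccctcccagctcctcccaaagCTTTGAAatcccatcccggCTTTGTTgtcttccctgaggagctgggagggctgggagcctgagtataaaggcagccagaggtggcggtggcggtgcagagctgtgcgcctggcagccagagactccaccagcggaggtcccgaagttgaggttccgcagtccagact

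A TCF/LEF word was present in the windows of 3 genes (Dkk1, Wnt11 and Wnt5b), or 6.52% of the 46 windows, against 8.65% of all 32851 windows. A SOX word was present in 13.04% of the 46 windows, belonging to Dkk1, Fzd7, Lgr6, Tcf7l2 and Wnt3, against 9.36% of all windows. Of these 7 genes only Dkk1 and Tcf7l2 had a library above the receptor level. These matches describe the letters in a short window and say nothing of binding.

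The wider pathway was read from 6 further lists, which held 159 genes on the array. At 2-fold, 0 of them were higher and 1 was lower in SOX2 KO, and at 1.5-fold 3 were higher (1.89%, against 3.91% of all genes) and 8 lower (5.03%, against 2.72%). Among genes with a mean signal at or above the receptor level, 3 of 94 were higher (3.19%, against 7.44% of all such genes) and 6 were lower (6.38%, against 4.94%). The median of the 159 was -0.06, against 0.00 over all genes. Among 8 genes of WNT secretion, all above the receptor level in both libraries, 7 were lower in SOX2 KO and the median was -0.125. Of the 9492 genes with a mean signal at or above that level, 4528 were lower, and the median was 0.00. At 1.5-fold 2 of the 8 were lower (25.0%, against 4.94% of the 9492) and 0 higher (against 7.44%). Porcn, whose product attaches the lipid to WNT proteins, had 3.95 in SOX2 KO and 4.46 in WT control, while Wls, which encodes the carrier that takes them to the cell surface, had 6.77 in SOX2 KO and 6.48 in WT control. Tmed5 and Atp6ap2, which serve protein transport and the proton pump beyond WNT secretion, were 1.67-fold and 1.73-fold lower in SOX2 KO.

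Of 41 beta-catenin target genes outside the 59, 27 were lower, 12 higher and 2 equal, with a median of -0.11. Over all 29456 genes, 14282 were lower and 13954 higher, with a median of 0.00. At 1.5-fold 4 of the 41 were lower (9.76%, against 2.72% of all genes) and 0 higher (against 3.91%). Of the 27 lower genes 14 were below the receptor level in both libraries, where a fall cannot be told apart from a shift of background. Of the 18 genes above that level in both, 11 were lower, 6 higher and 1 equal. Among the 9492 genes with a mean signal at or above it, 4528 were lower and 4725 higher. At 1.5-fold 3 of the 18 were lower (16.7%, against 4.94% of the 9492) and 0 higher (against 7.44%). The other gene of the 41 lower at 1.5-fold, Edn1, was below the receptor level in both libraries (3.17 in SOX2 KO and 3.78 in WT control). Fosl1 had 4.48 in SOX2 KO and 5.50 in WT control, a 2.03-fold lower signal, and Jun had 4.23 in SOX2 KO and 5.10 in WT control. Both encode subunits of AP-1 and respond to growth factors as well as to WNT. Cldn1, a tight junction gene, was 1.58-fold lower in SOX2 KO. In the other direction, Met, which encodes the receptor of hepatocyte growth factor, had 5.78 in SOX2 KO and 5.21 in WT control. Gast, the gene of the hormone gastrin, had 6.41 in SOX2 KO and 5.91 in WT control, and Id2, an inhibitor of helix-loop-helix factors, had 7.03 in SOX2 KO and 6.56 in WT control. Myc had 8.35 in SOX2 KO and 8.68 in WT control, Ccnd1, which encodes cyclin D1, differed by -0.07, and Cd44 had 7.66 in SOX2 KO and 7.83 in WT control. Sp5, a direct target in several tissues, was below the receptor level in both libraries (3.55 in SOX2 KO and 3.77 in WT control).

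The lists of 36 cytoplasmic genes, 24 nuclear partners, 30 genes of planar polarity and WNT5A signaling, and 20 other secreted modulators and co-receptors had medians of -0.02, -0.095, 0.03 and 0.055. In the cytoplasmic list Siah1a and Usp34 were 1.67-fold and 1.56-fold higher in SOX2 KO, and Gsk3b, the kinase that marks beta-catenin, had 6.80 in SOX2 KO and 6.60 in WT control. Tspan12, which encodes a partner of Frizzled in norrin signaling, was 1.66-fold higher in SOX2 KO (6.68 in SOX2 KO and 5.95 in WT control). In the polarity list Daam1, a formin that acts downstream of Dishevelled, was 1.73-fold lower in SOX2 KO.

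**Figure D3:**
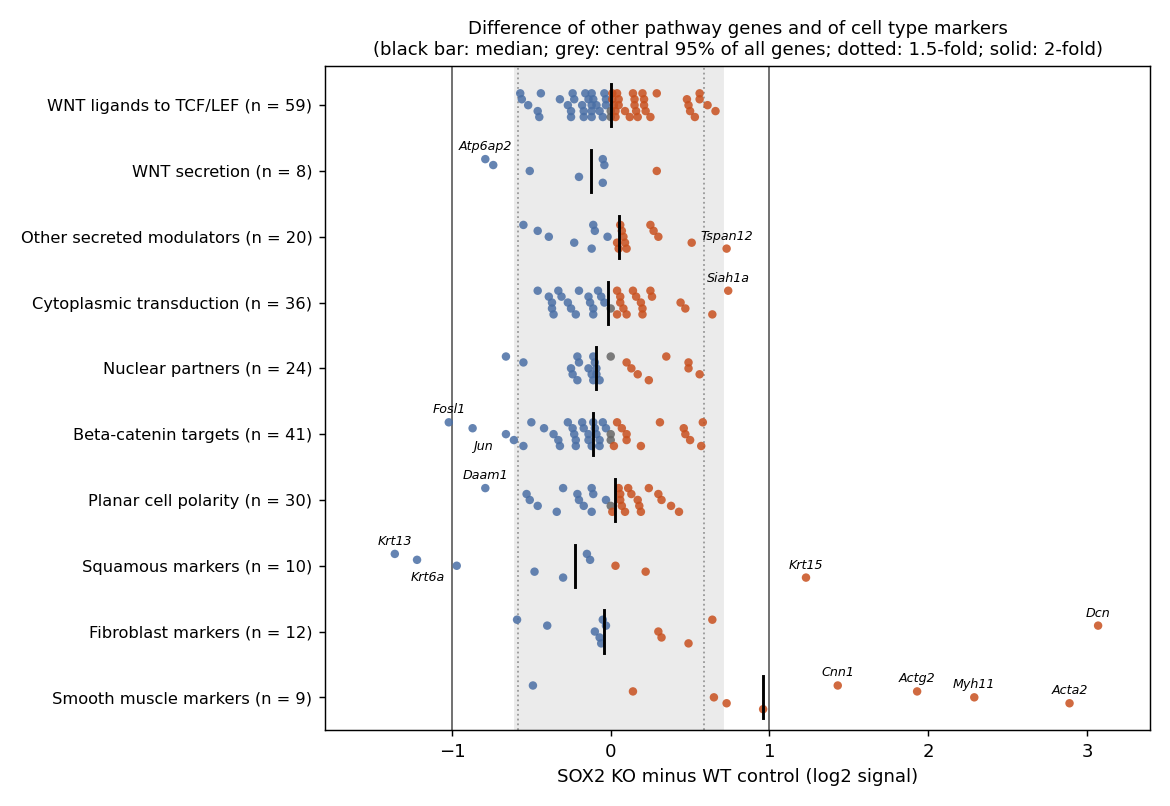
Difference between SOX2 KO and WT control (x axis, log2 signal) for the 59 WNT genes, the 6 further pathway lists and 3 lists of cell type markers (y axis), drawn as in the plot by role, with the number of genes beside each name. The pathway lists centre near 0 with medians from -0.125 to 0.055, and Fosl1 is the 1 pathway gene past the 2-fold line. Among the markers, 4 of smooth muscle, Dcn and the squamous keratin Krt15 lie beyond the 2-fold line on the SOX2 KO side. The squamous keratins Krt13 and Krt6a lie beyond it on the other side.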

How the data were processed

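RNA was extracted from 1 SOX2 KO and 1 WT control forestomach organoid culture with the RNeasy Mini kit, labelled with the WT Plus assay and hybridized to Mouse Gene 2.0 ST arrays. The authors used Transcriptome Analysis Console to normalize the arrays, and deposited a log2 signal per probe set and array with 2 decimals. Its version and the summarization method were not given in the sources used here. Probe set coordinates were on mm10, per the file headers. The columns are headed as averages, although each group lists 1 array. Deposited fold changes and p-values of the authors' own comparison were not used. Of 34472 probe sets, 29971 carried 1 symbol; the brighter by mean was kept for the 383 genes with several. The series value table held the same values (0 differed).

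Groups came from the submitters' genotype labels. With 1 library per group no test was run, and the number of arrays limits the precision. Members and lists were chosen with earlier results of these data known. Values are given for members past 1.5-fold with a library above the receptor level, the 4 of highest mean signal per role, the feedback genes, up to 6 genes of each pathway list, Sox2 and markers. Not all of these are printed, and other genes were named after their values were seen. Counts use no filter on signal, since a filter passed through the brighter library favours differences. Older symbols were matched through RefSeq. The alternatives were median centring, quantile and loess (span 0.3) scaling, the series value table, averaging a gene's probe sets, keeping genes with 1 probe set only, 3 filters on signal and 3 other background levels. Leaving out Rspo4os and adding the Ctnnb1 probe set were chosen after the data were seen. Python 3.11.15, pandas 2.3.3 and statsmodels 0.14.6 were used, and counting was tested on simulated data.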

Additional observations from a re-analysis of the deposited data

How the results depend on the processing

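No paired analysis was possible because SOX2 KO and WT control were 1 library each, for which reason none could be left out. With no replicates, a count was taken to have moved past 1.5 times the one reported, and a difference or median past the receptor SD of 0.26. The counts of 0 genes at 2-fold, in both directions, and of 0 at 1.5-fold lower were found under each scaling, filter, probe set and membership alternative and in the series value table. Only the 3 scalings and the added Ctnnb1 probe set could have raised these counts. The filters, the probe set settings, leaving out Rspo4os and the series value table, which held the same values, could not. The other background levels bear only on the count above background. The 2 genes at 1.5-fold higher became 0 when only genes with a mean signal at or above the receptor level were counted, since Notum and Dkk3 fall below it. The 17 genes above background in both libraries became 29 at the 90th and 2 at the 99th percentile of receptor values, and 33 with the median of all genes as the level. The median of the 59 genes ran from -0.02 (quantile scaling) to 0.035 (the receptor-level filter). The Sox2 difference ran from -3.27 to -3.20. For 38 named genes, 190 values under the scalings, the series value table and the mean of probe sets stayed within 0.26 of those reported, although the last 2 of these settings could not change them. Quantile scaling turned the sign of Wnt4 and Lrp6, and loess scaling that of Wnt4. The median difference of all genes was -0.02 after quantile scaling, the furthest from 0 of the 3 scalings. A fall from a signal at or below 3.84 cannot be told apart from a shift of background.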
